A study of Mus musculus with 2 samples.

Results

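Serpinb9, Serpinb9b and Serpinb1a are 3 of the 2000 genes that the deposited expression tables hold, and they were taken by name as clade B serpins, the intracellular branch of the serine protease inhibitors. Their levels are described here by CD8 or CD4 gate, by division state and by treatment, and beside those of Gzmb (granzyme B) and Gzma (granzyme A) in the same cells. The study transplanted spleen and bone marrow cells of wild-type C57BL/6 mice into lethally irradiated wild-type BALB/c recipients. One group of recipients received a monoclonal antibody against IL-2 and the other received tacrolimus, an inhibitor of calcineurin, each from day 0 to day 6, and spleen cells were taken on day 6. Each treatment gave 1 single-cell library (10x 5′ chemistry, NextSeq500) of cells that the labels call T cells, and all cells of both groups had met the same mismatched transplant, so no untransplanted or untreated cells serve as a baseline.

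With 1 library for each treatment there is no replicate check, treatment and library cannot be told apart, and no p-values are given. All intervals are exact 95% intervals (Poisson for summed UMIs, Clopper-Pearson for shares, conditional binomial for ratios) and cover counting error only. A ratio is called higher or lower where it is at least 1.5-fold either way and its interval leaves out 1, and between the libraries also only where the larger share is at least 5%.

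Serpins of this family trap a protease by offering it a reactive loop that, once cut, locks the enzyme to the inhibitor for good. Serpinb9 in the mouse, also called Spi6, inhibits granzyme B, which cytotoxic lymphocytes pack into their granules with perforin to kill target cells, and it sits in the cytosol and nucleus of the killer cell, where it guards the cell against its own leaked granzyme. Serpinb9b is a neighbouring copy from the expanded rodent branch of the same family. Serpinb1a is a mouse counterpart of human SERPINB1, an inhibitor of the neutrophil proteases elastase, cathepsin G and proteinase 3. Gzma is a granzyme of another specificity from the same granules.

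The 3 genes lie in 1 stretch of mouse chromosome 13 that holds 15 protein-coding Serpinb genes in GENCODE M21 (GRCm38, the mm10 assembly), of which 5 are in the tables. Serpinb1a occupies chr13:32842092-32851185 on the minus strand, Serpinb9 chr13:33003250-33017957 on the plus strand and Serpinb9b chr13:33027416-33041884 on the plus strand. Serpinb9 and Serpinb9b are near copies, so their reads could be mixed up, but in their GENCODE transcripts only 3 of 3432 windows of 60 bases in Serpinb9 and 3 of 3347 in Serpinb9b matched the other gene. In Serpinb1a 34 of 2267 windows, or 1.5%, also occurred in Serpinb1b or Serpinb1c, neither of which is in the tables. The 250 bases before the start sites of Serpinb9 and Serpinb9b, from RefSeq on GRCm38.p6, which matched 2 of the 3 members by symbol, are shown because these neighbours differed between the gates and along the cell cycle. Both were searched on both strands for GAAA, any 2 bases and GAAA, a repeat of the kind that interferon regulatory factors read. The capitals mark the only match, on the minus strand of Serpinb9, and the 10 bases of Serpinb9b aligned to it, which do not match.
Serpinb9, chr13:33004291-33004540, plus strand: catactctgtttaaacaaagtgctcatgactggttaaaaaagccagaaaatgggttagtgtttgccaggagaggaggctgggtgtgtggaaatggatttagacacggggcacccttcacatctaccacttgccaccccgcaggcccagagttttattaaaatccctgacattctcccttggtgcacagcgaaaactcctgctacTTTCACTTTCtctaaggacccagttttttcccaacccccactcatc
Serpinb9b, chr13:33027164-33027413, plus strand: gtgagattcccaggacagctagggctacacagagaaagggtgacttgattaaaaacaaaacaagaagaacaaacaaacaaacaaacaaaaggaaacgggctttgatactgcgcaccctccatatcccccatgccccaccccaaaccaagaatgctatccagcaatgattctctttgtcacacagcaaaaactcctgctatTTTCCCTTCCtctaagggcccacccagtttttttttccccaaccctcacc
The best local alignment of both stretches spanned 167 columns, with 118 identical (70.7%) and 17 in gaps. The match lies 46 to 37 bases before the Serpinb9 start site, and 978 of 32851 promoters in the table (2.98%) hold the same pattern on either strand in their 250 bases. TGANTCA, a pattern bound by AP-1 that reads the same on both strands, was found in neither promoter and in 6.75% of all promoters. The RefSeq start site of Serpinb9 lies inside the GENCODE span of the gene. A match is a description of the letters and says nothing of binding.

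After leaving out cells with under 200 detected genes, 1242 of 1551 anti-IL-2 cells and 1475 of 1688 tacrolimus cells remained, with medians of 13116.5 and 13254 UMIs (unique molecular identifiers, counted molecules) per cell. The anti-IL-2 totals were in part fitted, since the authors had integrated those values with the tacrolimus library. The CD8 gate (at least 1 UMI of Cd8a or Cd8b1 and 0 of Cd4) held 766 anti-IL-2 and 1006 tacrolimus cells, and the CD4 gate (at least 1 UMI of Cd4 and 0 of both others) held 298 and 294. Cd5, the 1 measured gene of 9 T-cell markers, had a UMI in 56.6% to 91.5% of the gated cells of each library and division state. The 3 measured NK-cell markers of 6 listed had median shares of 5.25% or lower in every such group. All 13 listed pancreatic acinar genes are in the tables, and at least 3 of them had a UMI in 0% to 1.06% of the cells of each anti-IL-2 gate and state and in 20.7% to 37.7% of those of the tacrolimus library. Ctrb1 was the most frequent of them in the tacrolimus library, in 37.3% of dividing CD8-gate cells, and Cela1 in the anti-IL-2 library, in 4.61%. The part of this acinar RNA in the differences between the libraries was not tested. The libraries shared 4 barcodes, no doublet caller was run, and the 99 anti-IL-2 and 93 tacrolimus cells with both Cd4 and Cd8 UMIs were set aside.

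Each cell was placed in a division state from the measured genes of S phase (20 of 23 listed) and of G2 and mitosis (22 of 23 listed). Cells with under 15% of both lists detected were called non-dividing, cells whose G2/M share was at least 15% and not below the S share were called G2/M, and all others G1/S. Among CD8-gate cells 93 were non-dividing, 346 G1/S and 327 G2/M in the anti-IL-2 library, against 53, 380 and 573 in the tacrolimus library. The CD4-gate numbers were 109, 143 and 46 in the anti-IL-2 library, against 36, 126 and 132 in the tacrolimus library. Cells with a share of 10% to under 20%, near the limit, made up 203 of 1064 gated anti-IL-2 cells (19.1%) and 88 of 1300 gated tacrolimus cells (6.77%). The state of a cell depends on how many of its genes were detected, and non-dividing cells were the shallowest in each gate and library.

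Serpinb9 was the most abundant of the 3 serpins and was carried by most CD8-gate cells. In the tacrolimus library, whose values turn back into whole UMIs, Serpinb9 stood at 1.40 UMIs per 10000 UMIs of the cell (1.06 to 1.81) in non-dividing CD8-gate cells, at 2.64 (2.51 to 2.78) in G1/S cells and at 4.13 (4.01 to 4.26) in G2/M cells. The same states of the CD4 gate stood at 0.833 (0.533 to 1.24), 1.79 (1.59 to 2.01) and 3.24 (3.0 to 3.50) UMIs per 10000. The intervals of the 3 states did not overlap within either gate, and the order was the same in both. Dividing cells held 2.56 times (1.97 to 3.39) the non-dividing level in the CD8 gate and 3.12 times (2.08 to 4.89) in the CD4 gate, and both were called higher. Over all genes tested in this comparison, 23.4% were called higher in the CD8 gate and 26.3% in the CD4 gate, so Serpinb9 was one of many genes with this direction.

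Among the dividing cells, Serpinb9 was higher in G2/M, a direction that fewer genes had. G2/M cells had 1.57 times (1.48 to 1.66) the Serpinb9 level of G1/S cells in the CD8 gate, where 9.17% of genes were called higher, and 1.81 times (1.57 to 2.09) in the CD4 gate, where 15.4% were. Counted by the number of the 22 G2/M genes with a UMI in the cell, the CD8-gate level was 2.22, 2.20, 2.20 and 2.49 UMIs per 10000 in cells with 0 to 3, 4 to 7, 8 to 11 and 12 to 15 of them and 4.11 in cells with 16 or more. The corresponding CD4-gate levels were 1.39, 1.32, 1.62, 2.08 and 3.22 UMIs per 10000. In the CD8 gate the level was thus flat up to 11 genes and stood apart in the last group of 561 cells, which were also the deepest, with a median of 16877 UMIs against 8651 in the first group. After thinning every cell to 5000 UMIs, Serpinb9 was found in 79.8% of 565 G2/M cells and 66.3% of 368 G1/S cells of the CD8 gate, with 8 and 12 shallower cells left out, against 94.2% and 88.2% before thinning. Drawn again, the thinned share of G2/M cells was 1.28 times that of G1/S cells in the CD8 gate, under the 1.5-fold needed for a call, and in the CD4 gate dividing over non-dividing cells gave 1.69 (0.96 to 3.25), also no call. Each such value is a single random draw. In other draws Serpinb9 was found in 38.9% and 19.4% of the 36 non-dividing CD4-gate cells. The 51 non-dividing CD8-gate cells gave 41.2% and 51.0%, so a call on thinned shares can change with the draw.

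**Figure D1:**
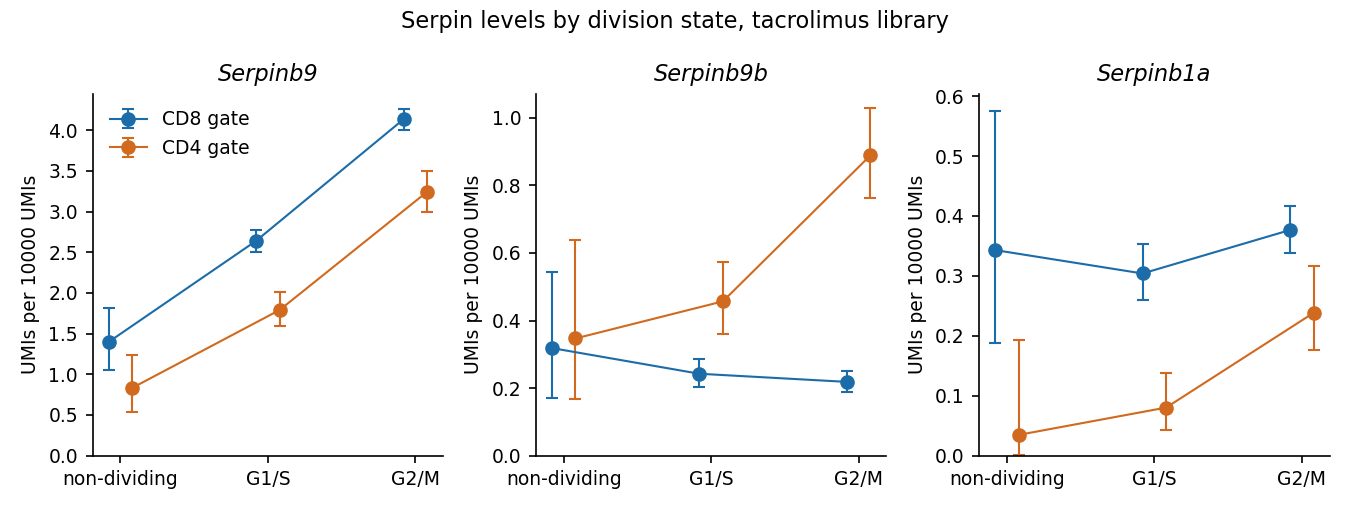
UMIs per 10000 UMIs (y axis) of Serpinb9, Serpinb9b and Serpinb1a in non-dividing, G1/S and G2/M cells (x axis) of the tacrolimus library, by gate, with points as pooled levels and bars as exact 95% Poisson intervals. Serpinb9 stood at 4.13 in CD8-gate and 3.24 in CD4-gate G2/M cells, while in dividing cells Serpinb9b was higher in the CD4 gate and Serpinb1a in the CD8 gate.

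The genes most like Serpinb9 across the 1006 CD8-gate tacrolimus cells, by Spearman's rank correlation on the deposited log values over 888 genes, were Tuba1c and Plk1 (coefficient 0.42 each), Cdk1 (0.41), Tuba1b and Top2a (0.40 each), which encode tubulins, a pair of mitotic kinases and a topoisomerase. Plk1, Cdk1 and Top2a are among the genes that set the division state. The coefficient with Gzmb, the protease that Serpinb9 inhibits, was 0.18, and with Gzma it was -0.08. These correlations describe cells of 1 library, which share its depth: the coefficient of Serpinb9 with the total UMIs of the cell was 0.29. For Serpinb9b and Serpinb1a the highest coefficient of any gene was 0.13 and 0.15, too weak in sparse counts to name a pattern.

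Serpinb9 differed between the gates by less than 1.5-fold in dividing cells. They held 3.58 UMIs per 10000 in the CD8 gate and 2.60 in the CD4 gate, a ratio of 1.38 (1.29 to 1.48) that fell short of a call. Non-dividing cells had 1.40 in the CD8 gate and 0.833 in the CD4 gate, a ratio of 1.68 (1.02 to 2.83) that was called higher, where 6.87% of genes were. That call rests on 57 and 24 UMIs and was lost with no minimum of detected genes, at 1.35-fold, with a gate of at least 2 UMIs, at 1.63-fold, and on thinned shares, at 1.69-fold, with intervals that hold 1.

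Serpinb9b was rarer and ran the other way between the gates. In the tacrolimus library it stood at 0.319 UMIs per 10000 (0.170 to 0.545) in non-dividing, 0.243 (0.204 to 0.287) in G1/S and 0.218 (0.190 to 0.25) in G2/M cells of the CD8 gate. In the CD4 gate it stood at 0.347 (0.166 to 0.638), 0.457 (0.359 to 0.574) and 0.889 (0.763 to 1.03). The CD8 intervals overlap across all 3 states, whereas the CD4 intervals of the 2 dividing states do not. Dividing CD8-gate cells had 0.227 UMIs per 10000 and dividing CD4-gate cells 0.696, a ratio of 0.33 (0.28 to 0.39) that was called lower, as were 10.1% of genes. Within the CD4 gate, G2/M cells had 1.95 times (1.48 to 2.59) the G1/S level and dividing cells 2.01 times (1.07 to 4.24) the non-dividing level, both called higher. On thinned shares both lost the call, at 2.10 (0.99 to 4.74) and 2.31 (0.59 to 19.9). Within the CD8 gate the same ratios were 0.90 (0.72 to 1.12) and 0.71 (0.41 to 1.35), neither called, and with the division limit at 25% the second was called lower, at 0.48 (0.34 to 0.69).

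A few cells carried most of the Serpinb9b UMIs: the top 5% of cells held 69.8% of them in the CD8 gate and 71.5% in the CD4 gate, against 19.8% and 22.1% for Serpinb9. This was not particular to Serpinb9b, since for Serpinb1a the shares were 45.5% in the CD8 gate and 71.0% in the CD4 gate. The CD4-gate levels of Serpinb1a thus also rest largely on few cells, the top 5% there being 15 cells. Serpinb9b was found in 152 of 1006 CD8-gate cells and in 60 of 294 CD4-gate cells of the tacrolimus library. The CD8 gate had 7 cells with 10 or more UMIs, up to 16, and they held 87 of the gate's 361 UMIs, or 24.1%. In the CD4 gate 10 such cells, with up to 26, held 162 of 263 UMIs, or 61.6%. Of these cells 6 of 7 in the CD8 gate and 8 of 10 in the CD4 gate were in G2/M, and none was non-dividing. The 7 CD8-gate cells had Serpinb9 at 6.27 UMIs per 10000 (5.05 to 7.71), against 3.46 (3.36 to 3.57) in the 854 CD8-gate cells with no Serpinb9b UMI. The 10 CD4-gate cells had Serpinb9 at 2.44 (1.74 to 3.34), against 2.35 (2.18 to 2.53) in the 234 CD4-gate cells with none. The intervals overlap in the CD4 gate and not in the CD8 gate. The 854 CD8-gate cells were 47 non-dividing, 316 G1/S and 491 G2/M, with a median of 13661 UMIs against 17401 in the 7 cells. All CD8-gate G2/M cells had Serpinb9 at 4.13, and the part of division state and depth in this difference was not tested. Counting cells in place of UMIs, Serpinb9b was found after thinning in 7.82% of dividing CD8-gate cells and 14.9% of dividing CD4-gate cells, a ratio of 0.60 when drawn again, in the same direction but nearer to 1.

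**Figure D2:**
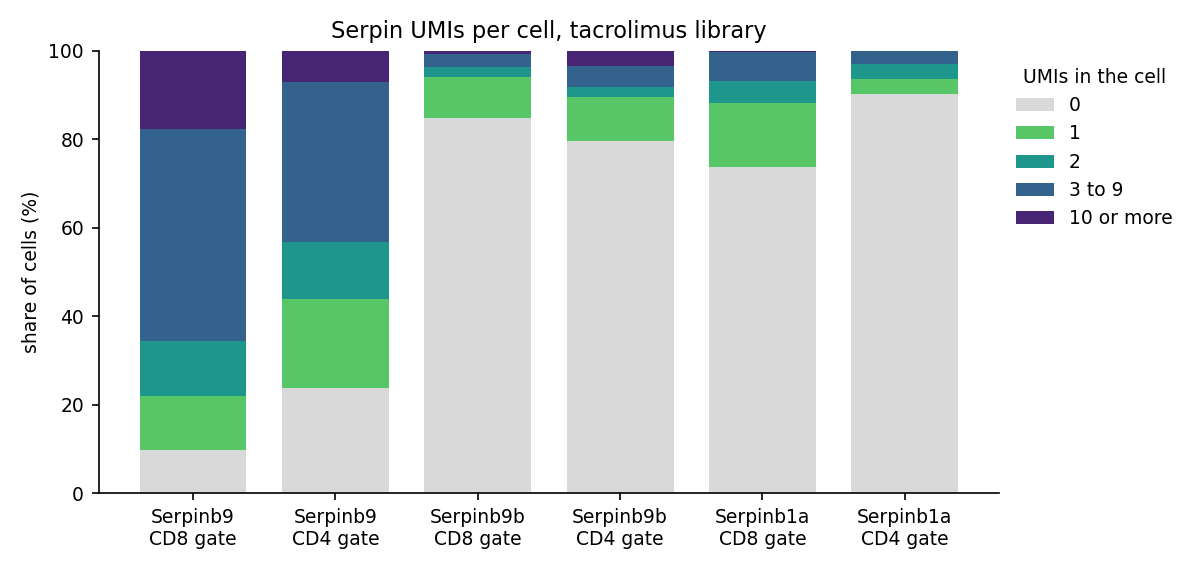
Share of tacrolimus cells (y axis, percent) with 0, 1, 2, 3 to 9 and 10 or more UMIs of each serpin, in the CD8 gate (1006 cells) and the CD4 gate (294 cells). Serpinb9 had 10 or more UMIs in 177 CD8-gate cells, while Serpinb9b was at 0 in 854 of them and had 10 or more in 7.

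Serpinb1a was higher in the CD8 gate of the tacrolimus library. It stood at 0.343 (0.188 to 0.576), 0.304 (0.260 to 0.353) and 0.377 (0.339 to 0.417) UMIs per 10000 in non-dividing, G1/S and G2/M cells of the CD8 gate, with overlapping intervals. In the CD4 gate it stood at 0.0347 (0.00088 to 0.193), 0.0803 (0.0427 to 0.137) and 0.238 (0.176 to 0.316), so G2/M cells were apart from G1/S cells. Dividing CD8-gate cells had 0.350 and dividing CD4-gate cells 0.168 UMIs per 10000, a ratio of 2.08 (1.60 to 2.76) that was called higher, as were 9.4% of genes. In CD4-gate cells G2/M exceeded G1/S by 2.97-fold (1.58 to 5.98), a call on 48 and 13 UMIs that was lost on thinned shares, at 3.52-fold (0.93 to 19.7). The non-dividing CD4-gate cells held 1 Serpinb1a UMI in 36 cells, so the 9.89-fold ratio of CD8 to CD4 there (1.5 to 418) rests on that molecule, and on thinned shares it was no call, at 4.24-fold. By its share in CD8-gate cells Serpinb1a exceeded Serpinb9b, at 26.3% and 15.1%, whereas in CD4-gate cells it was the rarer, at 9.86% and 20.4%.

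In the dividing tacrolimus cells, G1/S and G2/M pooled, the order of levels was Serpinb9, Serpinb1a, Serpinb9b in the CD8 gate and Serpinb9, Serpinb9b, Serpinb1a in the CD4 gate, with pooled intervals that did not overlap between neighbours. In G1/S cells of the CD8 gate alone, the intervals of Serpinb1a and Serpinb9b overlap. These are 5′ tag counts, which do not grow with transcript length.

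The other protease inhibitors were read from a list of 23 serpins and cystatins, of which 9 are in the tables. In the tacrolimus library the median log2 ratio of dividing to non-dividing cells over these 9 was -0.08 in the CD8 gate, where the median of all genes was 0.29, and 1 of 9 was called lower and 0 higher. That one was Serpina3g (Spi2A), an inhibitor of lysosomal cathepsins, at 0.212 UMIs per 10000 in dividing and 0.441 in non-dividing cells, where 6.93% of genes were called lower. It was also called lower in dividing CD4-gate cells, at 0.399 against 0.729 in non-dividing cells, where 7.65% of genes were, the opposite direction to Serpinb9. There it was 1 of 8 list members tested, with 0 called higher. Between the gates, 2 of the 9 were called higher and 2 lower in dividing CD8-gate cells, where 9.4% of all 1797 genes tested were called higher and 10.1% lower. Serpinb6a, another intracellular serpin of the chromosome 13 stretch, had 0.757 UMIs per 10000 in the CD8 gate and 0.377 in the CD4 gate, and Cst3 (cystatin C) had 2.87 in the CD8 gate and 1.89 in the CD4 gate. Serpina3g and Serpina3f had 0.212 and 0.0150 in the CD8 gate and 0.399 and 0.0963 in the CD4 gate.

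Gzmb, the target of Serpinb9, and Gzma were far more abundant than any serpin. In tacrolimus CD8-gate cells Gzmb stood at 28.2, 41.9 and 42.4 UMIs per 10000 in non-dividing, G1/S and G2/M cells, and in CD4-gate cells at 7.29, 18.6 and 18.0. Gzma stood at 53.9, 31.5 and 36.8 in the CD8 gate and at 4.79, 3.95 and 2.92 in the CD4 gate. Between the 2 dividing states Gzmb thus hardly differed (1.01-fold in the CD8 gate and 0.97-fold in the CD4 gate), while Serpinb9 did. For each Serpinb9 UMI there were 20.2 (15.5 to 26.8), 15.9 (15.1 to 16.7) and 10.2 (9.92 to 10.6) Gzmb UMIs in non-dividing, G1/S and G2/M cells of the CD8 gate. The CD4-gate ratios were 8.75 (5.72 to 14.0), 10.4 (9.21 to 11.8) and 5.56 (5.11 to 6.05). The G2/M cells had the fewest granzyme B tags for each inhibitor tag in both gates. In the CD4 gate their interval overlaps that of the non-dividing cells, whose ratio rests on 24 Serpinb9 UMIs. For Gzma the same ratios were 38.6, 11.9 and 8.89 in the CD8 gate and 5.75, 2.21 and 0.902 in the CD4 gate. Of the 14 measured genes of a list of 21 granule genes, 7 were called higher and 0 lower in dividing CD8-gate over CD4-gate cells, where 9.4% of all genes were called higher and 10.1% lower. Among the 7 was Prf1 (perforin) at 2.41 UMIs per 10000 in the CD8 gate and 0.361 in the CD4 gate. Their median log2 ratio was 1.08, that of the 9 inhibitors 0.60 and that of all genes -0.01.

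**Figure D3:**
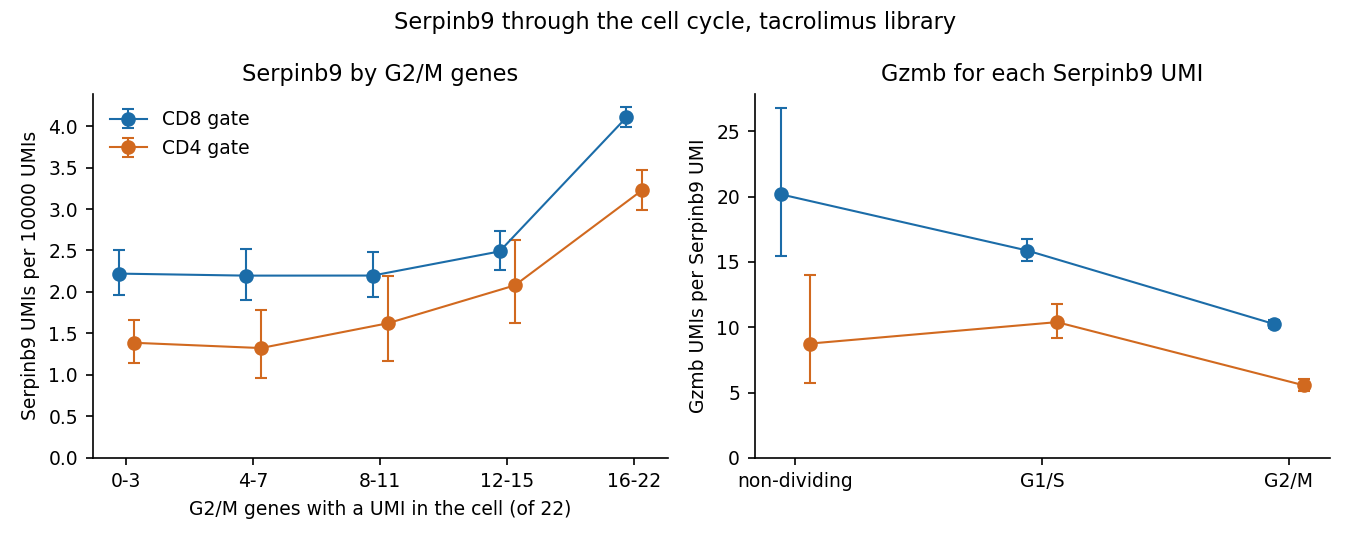
Left, Serpinb9 UMIs per 10000 UMIs (y axis) in tacrolimus cells grouped by how many of the 22 measured G2/M genes had a UMI (x axis). Right, Gzmb UMIs for each Serpinb9 UMI (y axis) by division state, with points as pooled values, bars as exact 95% intervals and colours as gates; the right-hand values are 10.2 in CD8-gate and 5.56 in CD4-gate G2/M cells.

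Within a gate, Serpinb9 stood higher in cells with more Gzmb, and past the threshold for a call only in the CD4 gate of the 2 gates compared. Tacrolimus cells of each gate were ranked by Gzmb UMIs per 10000 and cut into 3 equal groups. In the CD8 gate Serpinb9 stood at 2.95 (2.80 to 3.12), 3.36 (3.21 to 3.52) and 4.13 (3.96 to 4.30) UMIs per 10000 in the groups with the lowest, middle and highest Gzmb, 1.40-fold (1.3 to 1.5) for the highest over the lowest, not called, where 3.29% of genes were called higher. In the CD4 gate it stood at 1.42 (1.21 to 1.66), 2.55 (2.29 to 2.83) and 3.19 (2.91 to 3.49), 2.24-fold (1.87 to 2.70), called higher, as were 14.6% of genes. The difference between the gates was not tested. Among CD4-gate cells the highest group was also the deepest, with medians of 9757, 11573 and 13349 UMIs per cell in that order. Split again within 1 division state, the ends of the CD4 gate differed by 2.41-fold (1.73 to 3.42) in G1/S cells, where 11.7% of genes were called higher, and by 1.53-fold (1.24 to 1.88) in G2/M cells, where 7.18% were. The 41 CD4-gate cells with no Gzmb UMI had Serpinb9 at 0.637 UMIs per 10000 (0.412 to 0.940), against 2.67 (2.5 to 2.85) in the 253 cells with Gzmb.

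Serpinb9b and Serpinb1a also stood higher in CD4-gate cells with more Gzmb. In the lowest, middle and highest Gzmb groups of the CD4 gate Serpinb9b had 0.374, 0.865 and 0.720 UMIs per 10000, and Serpinb1a had 0.0445, 0.142 and 0.261. The highest over the lowest group was 1.93-fold (1.33 to 2.82) for Serpinb9b and 5.85-fold (2.30 to 19.1) for Serpinb1a, whose ratio rests on 38 and 5 UMIs. The division states did not share this: within G1/S cells Serpinb9b gave 9.56-fold (3.51 to 36.4) on 51 and 4 UMIs, but within G2/M cells it gave 0.75 (0.48 to 1.15) and Serpinb1a 1.32 (0.63 to 2.84), neither called. Serpinb1a in the CD8 gate had 0.356, 0.345 and 0.348 from the lowest to the highest group, a ratio of 0.98 (0.79 to 1.21). Serpinb9b there had 0.198, 0.163 and 0.318, a ratio of 1.61 (1.24 to 2.09) that was called higher. It was found in 12.8% (9.45 to 16.9) of cells of the lowest and 17.3% (13.4 to 21.7) of the highest group, with overlapping intervals. Of the 3 serpins, 1 was thus called with Gzmb in the CD8 gate and all 3 in the CD4 gate. Of all genes tested, 3.29% were called higher in the CD8 gate and 14.6% in the CD4 gate. Serpinb9b had a UMI in 23.3% of the 253 CD4-gate cells with Gzmb, against 1 of the 41 without.

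**Figure D4:**
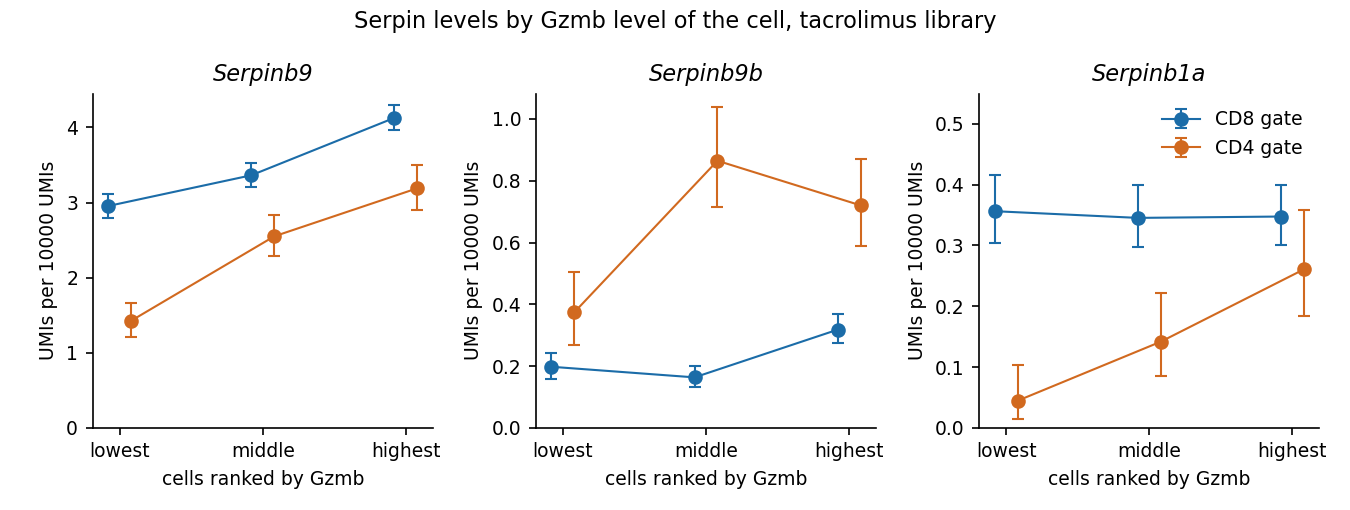
UMIs per 10000 UMIs (y axis) of each serpin in tacrolimus cells in 3 equal groups of lowest, middle and highest Gzmb level (x axis), by gate, with exact 95% Poisson intervals. In the CD4 gate Serpinb9 stood at 1.42, 2.55 and 3.19, and Serpinb1a at 0.0445, 0.142 and 0.261.

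Gzma split the cells differently. CD8-gate tacrolimus cells with a Gzma UMI had Serpinb9 at 3.53 UMIs per 10000 and the 84 without had 3.44, a ratio of 1.03 (0.93 to 1.13). Of the CD4-gate cells, the 119 with Gzma had 2.62 and the 175 without had 2.35, a ratio of 1.11 (0.98 to 1.27). Serpinb9b differed more: it had 0.899 in CD4-gate cells with Gzma and 0.493 in those without, 1.82-fold (1.42 to 2.35), where 5.61% of genes were called higher. By share, 24.4% (17.0 to 33.1) of these cells with Gzma and 17.7% (12.4 to 24.2) without had Serpinb9b, with overlapping intervals. Among G2/M cells of the CD4 gate these shares were 25.8% with and 25.7% without Gzma. Serpinb1a was called higher with Gzma in both gates. In the CD8 gate it had 0.361 with and 0.232 without (1.55-fold, 1.09 to 2.29, with 4.9% of genes called). In the CD4 gate it had 0.234 with and 0.0996 without (2.35-fold, 1.36 to 4.14), on 40 and 22 UMIs. It was found in 249 of 922 CD8-gate cells with Gzma and 16 of 84 without. In the CD4 gate it was found in 16 of 119 cells with Gzma and 13 of 175 without. The intervals of these shares overlap in both gates. In G1/S cells of the CD8 gate Serpinb1a had 0.334 with and 0.0757 without Gzma, on 168 and 5 UMIs. In G2/M cells of that gate it had 0.378 with and 0.361 without.

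Of the anti-IL-2 cells only the share with a UMI is used, because the integrated values give no levels. Serpinb9 was found in 51.6% (41.0 to 62.1), 77.5% (72.7 to 81.8) and 85.9% (81.7 to 89.5) of non-dividing, G1/S and G2/M cells of the CD8 gate. In the CD4 gate it was found in 23.9% (16.2 to 33.0), 40.6% (32.4 to 49.1) and 67.4% (52.0 to 80.5). The order of the states was that of the tacrolimus library. The shares there were 62.3%, 88.2% and 94.2% in the CD8 gate and 44.4%, 73.8% and 87.1% in the CD4 gate. None of these shares was thinned, and median UMIs per cell under anti-IL-2 rose in the same order. The medians were 10467, 14108 and 19424 in the CD8 gate and 8588, 10998 and 14982.5 in the CD4 gate. How much of the rise in shares went with these totals was not tested. As background, none of 18 anti-IL-2 and none of 16 tacrolimus cells with at least 3 B-cell and plasma-cell markers and no Cd4, Cd8 or Cd5 UMI had a Serpinb9 UMI, which allows shares of up to 16.7% and 18.8% at medians of 10033 and 14897 UMIs. Serpinb9b was also at 0 in these cells, and Serpinb1a was found in 0 of 18 and 1 of 16. Of 9 erythroid cells of the anti-IL-2 library 3 had Serpinb9, and of 19 myeloid cells 3 had Serpinb1a. The Serpinb9b shares lie below the limits in every state except G2/M of the CD4 gate, and the Serpinb1a shares do so in all CD4-gate states and in non-dividing and G1/S anti-IL-2 cells of the CD8 gate, so these few cells cannot set expression apart from free RNA there. For Serpinb9 the erythroid share, 33.3% of 9 cells, lies above the 23.9% of non-dividing anti-IL-2 cells of the CD4 gate, so the same holds there.

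**Figure D5:**
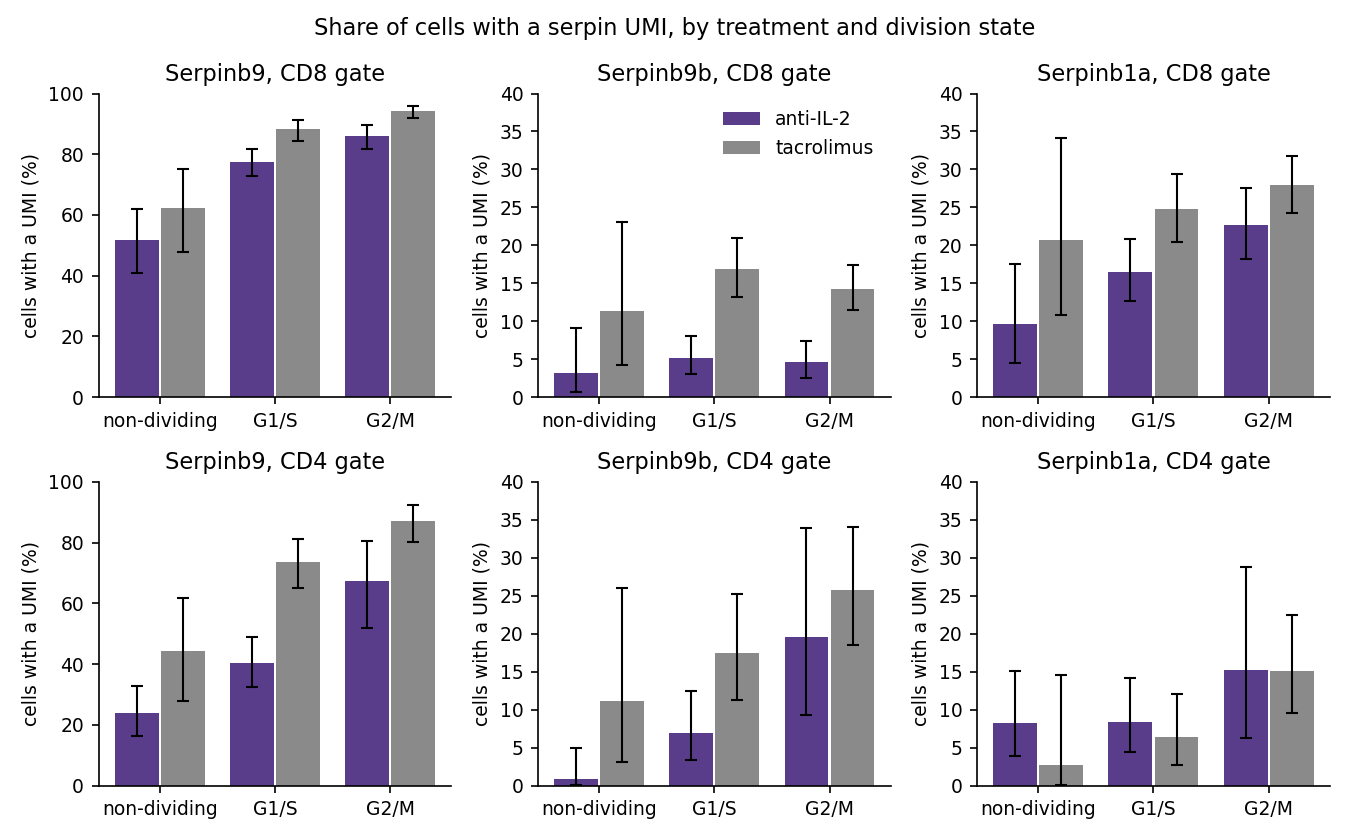
Share of cells with at least 1 UMI (y axis, percent) of each serpin in non-dividing, G1/S and G2/M cells (x axis), in the anti-IL-2 and tacrolimus libraries, with the CD8 gate above and the CD4 gate below and exact 95% binomial intervals. Serpinb9 was found in 40.6% of anti-IL-2 and 73.8% of tacrolimus G1/S cells of the CD4 gate.

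Serpinb9 was found less often in anti-IL-2 than in tacrolimus cells of the CD4 gate. Tacrolimus cells were thinned to the totals of the anti-IL-2 cells where they were deeper. In the dividing CD4 gate Serpinb9 was then found in 47.1% (89 of 189) of cells under anti-IL-2 and 80.6% (208 of 258) under tacrolimus, a ratio of 0.58 (0.45 to 0.75), called lower. At near-equal median depth (12141 UMIs in anti-IL-2 and 12087 in thinned tacrolimus cells) anti-IL-2 cells of this group had fewer genes detected, a median of 292 against 418 before thinning, and 32.3% of 933 genes tested were called lower and 7.93% higher. The median log2 ratio of all genes there was -0.34 and that of Serpinb9 was -0.78, so the Serpinb9 call lies among many. Among cells of both libraries with 250 to 400 detected genes, a window chosen after seeing the data, the shares were 46.7% of 105 cells under anti-IL-2 and 66.0% of 100 under tacrolimus, a ratio of 0.71 (0.48 to 1.04) that is no call. Among cells with 10000 to 20000 UMIs, also chosen after seeing the data, the ratio was 0.59 (0.41 to 0.82), still called, as it was in G1/S cells taken alone, at 0.56 (0.39 to 0.78), and in cells with directly readable totals, at 0.47 (0.24 to 0.83). The call was also lost in G2/M cells taken alone, at 0.77 (0.50 to 1.16), with the division limit at 25%, at 0.76, and with the integration shift left in, at 0.75.

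Serpinb9b had the largest library difference of the 3 in the CD8 gate. In the dividing CD8 gate Serpinb9b was found in 4.90% (33 of 673) of cells under anti-IL-2 and 15.3% (146 of 953) under tacrolimus, a ratio of 0.32 (0.21 to 0.47) that was called lower, where 7.82% of genes were. The anti-IL-2 cells were the deeper ones there, at a median of 16745 UMIs against 14451 for tacrolimus cells, but had fewer genes detected, a median of 392 against 433. Within 10000 to 20000 UMIs the shares were 5.39% under anti-IL-2 and 16.4% under tacrolimus. The ratio was nearer to 1 with the integration shift left in, at 0.61 (0.45 to 0.83), and farther from it in cells with directly readable totals, at 0.13 (0.016 to 0.49), called in both. In dividing CD4-gate cells the shares were 10.1% under anti-IL-2 and 21.7% under tacrolimus, a ratio of 0.46 (0.26 to 0.79), also called lower. That call was lost with the integration shift left in (0.76), in cells with directly readable totals (0.30), in the window of 250 to 400 genes (0.54) and in G2/M cells alone (0.76). In the CD8 gate Serpinb9 differed by less, with 81.6% of anti-IL-2 and 91.4% of tacrolimus dividing cells (0.89, 0.80 to 0.99), and Serpinb1a had 19.5% and 26.7% (0.73, 0.59 to 0.91), neither of them a call. Within 10000 to 20000 UMIs Serpinb1a was called lower, at 19.9% under anti-IL-2 and 31.0% under tacrolimus (0.64, 0.47 to 0.87), and so it was in G1/S cells alone (0.67). In that window the anti-IL-2 cells had a median of 343 detected genes and the tacrolimus cells 431. Among cells with 250 to 400 detected genes the Serpinb1a shares were 19.8% under anti-IL-2 and 22.4% under tacrolimus, no call. Serpinb1a in dividing CD4-gate cells was near equal, at 10.1% of cells under anti-IL-2 and 10.9% under tacrolimus. In non-dividing cells none of the 3 serpins was called in either gate, where 11.6% of genes were called either way in the CD8 gate and 8.28% in the CD4 gate. Serpinb9 there had 51.6% of anti-IL-2 and 62.3% of tacrolimus CD8-gate cells and 23.9% of anti-IL-2 and 41.7% of tacrolimus CD4-gate cells. With no minimum of detected genes, Serpinb9 of the CD4 gate (0.46, 0.27 to 0.80) and Serpinb9b of the CD8 and CD4 gates (0.20, 0.035 to 0.84, and 0.070, 0.0015 to 0.63) were called lower in non-dividing anti-IL-2 cells. With the division limit at 25%, Serpinb9 of the CD4 gate (0.54) and Serpinb9b of the CD8 and CD4 gates (0.25 and 0.29) were likewise called lower.

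No gene of the inhibitor list was called lower in anti-IL-2 cells, but too few were tested for this to set the list apart from all genes. Of the 9 measured, 6 were tested in dividing CD8-gate cells and 5 in each other group. Of all genes, 7.82% were called lower in dividing CD8-gate cells and 32.3% in dividing CD4-gate cells. In non-dividing cells 11.6% of genes in the CD8 gate and 8.28% in the CD4 gate were called either way. In the CD8 gate Serpinf1 was called higher in dividing cells, and Serpina3g was called higher in non-dividing cells. Serpina3g was also called higher in dividing cells, with 27.5% under anti-IL-2 and 17.3% under tacrolimus in the CD8 gate and 32.3% under anti-IL-2 and 20.2% under tacrolimus in the CD4 gate, where 8.25% of genes in the CD8 gate and 7.93% in the CD4 gate were called higher. Of the 12 granule genes tested in dividing CD8-gate cells, 2 were called higher and 2 lower, where 8.25% of all genes were called higher and 7.82% lower. Ctsl and Ctss, which encode cathepsins L and S, were found in 9.81% and 44.7% of cells under anti-IL-2 and in 4.72% and 29.7% under tacrolimus. Gzmc was found in 5.05% of cells under anti-IL-2 and 16.4% under tacrolimus and Gzmm in 3.42% under anti-IL-2 and 14.6% under tacrolimus. Gzmb, by contrast, was found in 96.4% of cells under anti-IL-2 and 99.5% under tacrolimus and Gzma in 95.2% and 91.4%. In dividing CD4-gate cells Gzmb was found in 68.8% of cells under anti-IL-2 and 89.9% under tacrolimus, no call. Of the 12 granule genes tested there, 1 was called higher and 2 lower, where 7.93% of all genes were called higher and 32.3% lower. Ctsl was found in 12.7% of cells under anti-IL-2 and 4.65% under tacrolimus, Prf1 in 16.9% under anti-IL-2 and 33.7% under tacrolimus, and Gzmc in 1.06% under anti-IL-2 and 10.1% under tacrolimus.

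In the anti-IL-2 library the share of dividing CD4-gate cells with Serpinb9 was higher with each granzyme than without it. Of dividing CD4-gate anti-IL-2 cells with a Gzmb UMI, 57.7% of 130 (48.7 to 66.3) had Serpinb9, against 23.7% of the 59 (13.6 to 36.6) without Gzmb. Split by Gzma, 59.8% of 92 cells with it had Serpinb9, against 35.1% of the 97 without. The cells with Gzmb were deeper, with medians of 13076 UMIs with and 10225 without. In the tacrolimus library the corresponding shares were 82.8% of 233 with and 15 of 25 without Gzmb, and 83.2% of 107 with and 78.8% of 151 without Gzma. After thinning to 5000 UMIs the tacrolimus shares were 61.0% of 218 with and 48.4% of 31 without Gzmb, with overlapping intervals, and 48 of 80 with and 59.2% of 169 without Gzma. In dividing CD8-gate anti-IL-2 cells Serpinb9 was found in 82.0% of 649 with and 70.8% of 24 without Gzmb, and in non-dividing ones in 51.1% of 88 with and 3 of 5 without, with overlapping intervals in both states.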

How the data were processed

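The samples were 2 single-cell libraries, grouped by the treatment in their labels. Cell Ranger 3.1.0, Seurat and the build mm10 are named in the submitters' processing notes. The deposited values are natural log values, natural log(1 + UMIs ÷ cell total × 50000), as the authors deposited them, read from the values themselves. All tacrolimus values (100%, tolerance 0.001) turned back into whole UMIs. The anti-IL-2 values had been batch-integrated, with 13.9% below 0, so a shift shared by 30 neighbouring cells was estimated and removed, and a detection was a residual above 0.5 of the level of 1 UMI. The total of 374 anti-IL-2 cells could be read directly, and the rest were fitted. This step was tried on simulated data integrated with Seurat 5.3.0 (R 4.3.3). The simulated pair was a random split of the tacrolimus cells with set changes in some genes. It held no difference between separately made libraries, so it cannot show how well such a shift was removed here. The 308 anti-IL-2 columns repeated in the other table were used once. UMIs were summed over cells, and shares were compared after thinning, with Python 3.11.15, NumPy 2.4.6 and SciPy 1.17.1. A ratio was computed for every gene and read against all genes tested, which for shares needed 5% of cells in 1 group. Sequences were aligned with Biopython 1.88. Alternatives were other gates, cell filters, division limits and thinning, and, chosen after seeing the data, windows of UMIs and genes and each dividing state alone. The members and lists were chosen with earlier results of these data known. Named genes were the members, both granzymes, a list of serpins and cystatins, a list of granule genes, and the 5 genes most like each member.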

Additional observations from a re-analysis of the deposited data

Results flagged for a closer look

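Each result here was called higher in the CD4 gate of the tacrolimus library, while the CD8-gate ratio lay below 1 with an interval that holds 1 and so shows no direction beyond counting error. The difference between the gates was not tested. Serpinb9b in dividing over non-dividing cells was 0.71 (0.41 to 1.35) in the CD8 gate and 2.01 (1.07 to 4.24) in the CD4 gate, a difference of -1.49 on the log2 scale. Serpinb9b in G2/M over G1/S cells was 0.90 (0.72 to 1.12) in the CD8 gate and 1.95 (1.48 to 2.59) in the CD4 gate, a difference of -1.11. Both Serpinb9b calls were lost on thinned shares, at 2.31 (0.59 to 19.9) and 2.10 (0.99 to 4.74). In the CD4 gate 10 cells held 61.6% of the Serpinb9b UMIs. Serpinb1a in the group of highest over that of lowest Gzmb was 0.98 (0.79 to 1.21) in the CD8 gate and 5.85 (2.30 to 19.1) in the CD4 gate, a difference of -2.59. That CD4-gate ratio rests on 38 and 5 UMIs.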

How the results depend on the processing

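No paired analysis was possible because each treatment has 1 library. Of 224 recomputed ratios, 210 stayed within the counting interval of the reported value, 14 moved outside it and none reversed a call, meaning that no called ratio crossed 1. A call lost or gained is not a reversal. Several calls were lost or gained, also among ratios that stayed within the interval. On thinned shares Serpinb9 gave 1.69 for dividing over non-dividing cells in each gate (no call in the CD4 gate), and for G2/M over G1/S cells 1.28 in the CD8 gate and 1.54 in the CD4 gate, and Serpinb9b gave 0.60 for dividing CD8 over CD4 cells. Thinned shares come from a single random draw, and a call on them can change with the draw. With a division limit of 25%, Serpinb9 gave 1.84 for dividing over non-dividing CD8-gate cells and 0.76 for anti-IL-2 over tacrolimus dividing CD4-gate cells, which ends that call, as did G2/M cells alone, an alternative chosen after seeing the data, at 0.77. With over without a Gzmb UMI in the CD4 gate, Serpinb9 gave 4.19 and Serpinb9b 29.1. For anti-IL-2 over tacrolimus, Serpinb9b in dividing CD8-gate cells gave 0.61 with the integration shift left in and 0.13 in cells with a directly readable total. In those cells Serpinb9b was at 0 in non-dividing and Serpinb1a at 0 in dividing CD4-gate cells. With the shift left in, the dividing CD4-gate ratios of Serpinb9 and Serpinb9b, 0.75 and 0.76, were no longer called. In non-dividing CD4-gate cells Serpinb9b had 1 anti-IL-2 cell with a UMI, and a call appeared with no thinning, at 0.083. The cause of these changes was not tested. Of 108 recomputed levels, 3 moved outside their interval. Cells of the CD8 gate without Gzmb and the windows of non-dividing cells held under 20 cells in a group and gave no value. The tacrolimus library held 53 CD8-gate and 36 CD4-gate non-dividing cells, with median depths of 7539 and 7962 UMIs, and differences within their counting intervals were not detectable at this depth.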
